A study of Homo sapiens with 16 samples.

Results

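The lysosome is the acidic compartment in which cells take apart proteins, glycans, lipids and nucleic acids that reach it by endocytosis or autophagy. Its hydrolases are made as glycoproteins in the endoplasmic reticulum, most are marked with mannose 6-phosphate in the Golgi and carried onward by mannose 6-phosphate receptors, and they work at low pH, some only with an activator protein. Loss of single members causes the lysosomal storage disorders, in which the undigested substrate builds up.

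The mRNAs of 43 such enzymes and activators were followed after depletion of YEATS2, a subunit of the ATAC histone acetyltransferase complex. The genes were taken by symbol from a fixed list, which was chosen with earlier results of these data known. Of the 43, 42 have a row in the deposited table of 12676 genes. CTSK, the collagen-degrading cathepsin of osteoclasts, has none and was not analysed here. They were grouped into 11 proteases, 15 glycosidases, 5 sulfatases, 6 lipid enzymes, 3 activators and 3 other enzymes.

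The cells were H1299, established from a human non-small cell lung carcinoma, and all 4 RNA-seq libraries of the 16 samples of the series came from it. The 2 control libraries (shNT, shCtrl in their titles) came from cells with a non-targeting pLKO shRNA and the 2 knockdown libraries (shYEATS2) from cells with an shRNA against YEATS2, so that both groups share the lentiviral infection with polybrene at 8 µg per ml and, 48 h later, selection with puromycin at 2 µg per ml (for 4 to 7 days by the labels, whereas the methods give a shorter time). The study calls the duplicates independent biological replicates and attributes them to its shRNA shY2-1, whereas the labels name no shRNA, and the comparison rests on a single cell line. The libraries held between 34718921 and 39417787 reads over the listed genes, and the members between 87 and 76881 reads in a library.

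Counts are given as scaled reads, meaning reads scaled by the TMM method of edgeR to the mean library size, and differences were tested with the quasi-likelihood F-test of edgeR, with p-values adjusted over all genes after Benjamini and Hochberg. A gene is called when its false discovery rate (FDR) is under 0.01. YEATS2 itself, the targeted gene (chr3:183415585-183530412 of GRCh37), had 4482 and 4104 scaled reads in shNT and 665 and 673 in shYEATS2 cells, with a log2 fold change of -2.68 ± 0.10 (SE). Both knockdown libraries thus lay far below both controls. As for the identity of the cells, KRT8, KRT18 and VIM, which mark this vimentin-positive carcinoma line, were abundant, and EPCAM and NKX2-1 have no row in the table.

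Many lysosomal promoters carry the word CACGTG (an E-box), which also forms the core of the CLEAR element bound by the transcription factors TFEB and TFE3. Since most of the members moved together, their promoters were searched for it, from 250 bases before to 50 after each RefSeq start (GRCh38.p14). The table held 40 promoters of 31 members, and not those of CTSB, CTSK, CTSO, HEXA, ARSA, SGSH, NAGLU, MANBA, ASAH1, LGMN, PSAP and HGSNAT. CACGTG was found in 8 of the 40 promoters, 1 each in ARSB, CTSA, CTSD, CTSF, GAA, GALNS, NEU1 and SUMF1, against 7.26% of all 35116 promoters. The longer word TCACGTGA, which contains it, was found in 3, those of GAA, CTSA and GALNS, against 0.98% of all promoters. Both words read the same on either strand. The stretches below are those of the 3 genes with the longer word and of NEU1 and CTSD, the members with the largest rises among the other 5, with each CACGTG in capitals. They are written 5′ to 3′ on the strand of the gene and all lie before the start.
GAA: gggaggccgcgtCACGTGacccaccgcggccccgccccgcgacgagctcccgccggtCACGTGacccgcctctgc
CTSA: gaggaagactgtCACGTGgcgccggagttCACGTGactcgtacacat
GALNS: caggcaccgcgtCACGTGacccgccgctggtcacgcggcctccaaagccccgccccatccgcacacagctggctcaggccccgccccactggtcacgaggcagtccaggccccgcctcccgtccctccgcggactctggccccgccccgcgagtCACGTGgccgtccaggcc
NEU1: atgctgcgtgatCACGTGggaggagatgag
CTSD: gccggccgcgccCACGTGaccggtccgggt

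These stretches lie at chr17:80101493-80101567 on the plus strand for GAA, chr20:45891281-45891327 on the plus strand for CTSA, chr16:88856962-88857133 on the minus strand for GALNS, chr6:31862930-31862959 on the minus strand for NEU1 and chr11:1763957-1763986 on the minus strand for CTSD. In GAA the words begin 76 and 31 bases before the start, and in CTSA 42 and 25 bases before it. In GALNS they begin 174 and 32 bases before the start, in NEU1 126 and in CTSD 47. A match of letters is a description and not a binding site. Of the 8 members with the word, 7 rose in YEATS2 KD cells and SUMF1 did not pass the test, and of the 23 other members with a searched promoter 10 rose, against 12.9% of all genes called higher. The difference between the members with and without the word was not tested. TFE3, the only one of the 4 MiT/TFE factor genes with a row in the table, had 4006 and 3483 scaled reads in shNT and 5595 and 5308 in shYEATS2 libraries (log2 fold change 0.54 ± 0.11, SE; FDR 0.00713).

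YEATS2 depletion was accompanied by higher levels of most lysosomal hydrolase mRNAs. Of the 42 members tested, 25 (59.5%) were called higher and 1, CTSB, was called lower, whereas 12.9% of all genes tested were called higher and 12.5% lower. Since the list was chosen with earlier results of these data known, these shares are a description and not independent support. A further 7 members, CTSZ, CTBS, FUCA1, NAGLU, FUCA2, LIPA and SUMF1, were higher at an unadjusted p under 0.05 without passing the FDR threshold. At that p in the quasi-likelihood test, 32 of the 42 members and 3636 of all 12676 genes were higher. The members had a median log2 fold change of 0.72, against -0.0019 for all genes tested, and 17 members rose by at least 2-fold. Both knockdown libraries lay above both controls in 32 members (76.2%), against 39.7% of all genes, and below both in 5, against 39.8% of all genes. When single libraries were left out, the number called higher was 18 without shNT replicate 1, 20 without shNT replicate 2, 28 without shYEATS2 replicate 1 and 24 without shYEATS2 replicate 2. The members that lost their call in at least 1 of these fits were ACP2, ARSB, ASAH1, CTSF, DNASE2, GALC, IDS and SGSH, with FDR values of at most 0.0657, and all 25 stayed above 0 in each fit.

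**Figure D1:**
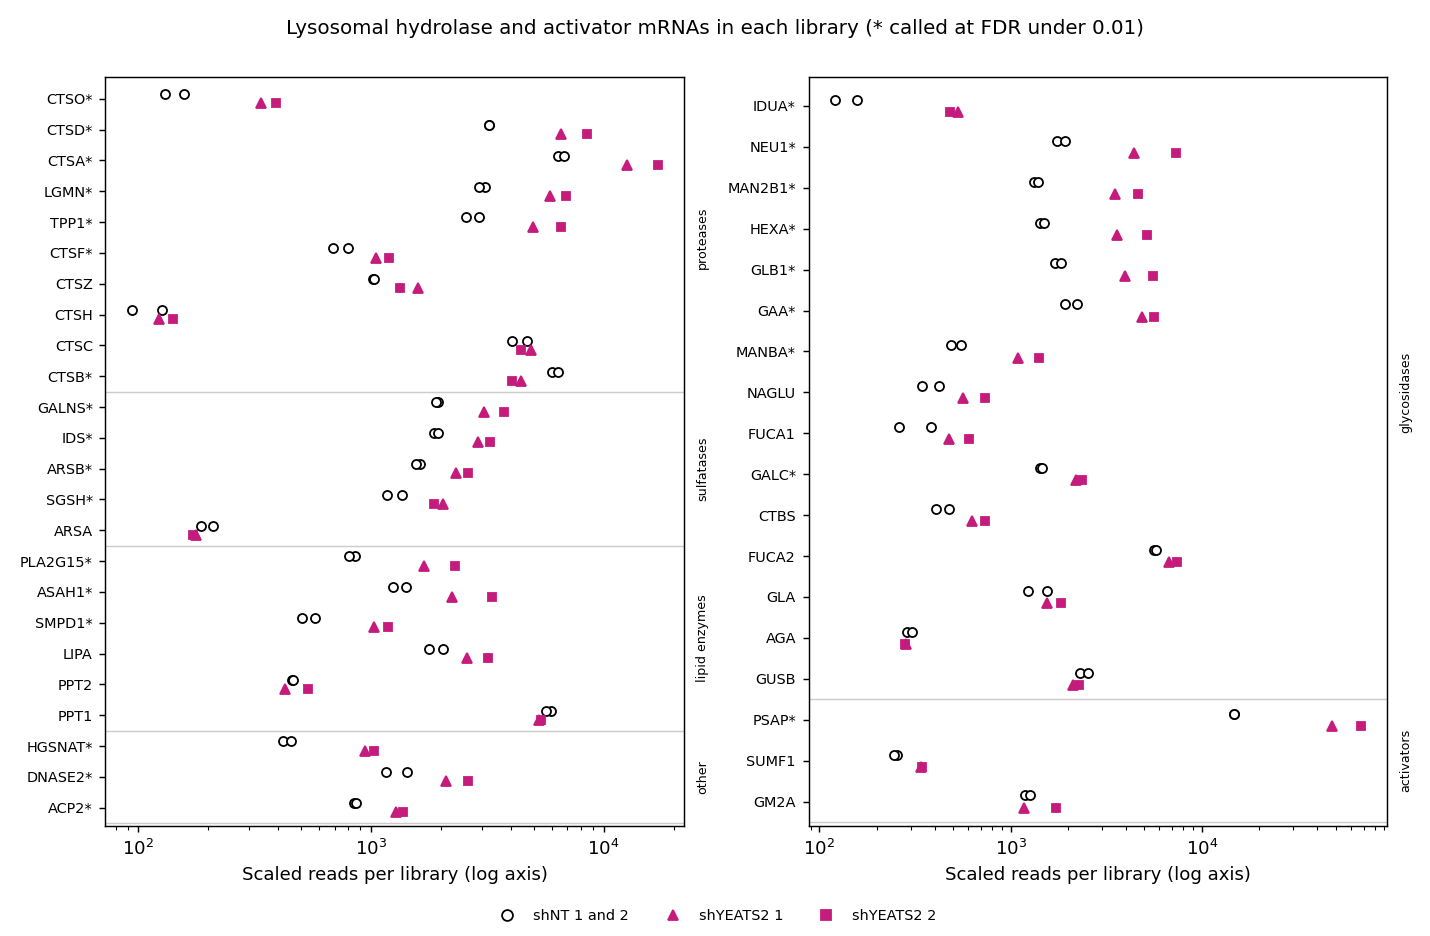
Scaled reads (log axis) of the 42 members in each library, by class, with open circles for the shNT libraries, triangles for shYEATS2 replicate 1 and squares for shYEATS2 replicate 2. Both knockdown libraries sit to the right of both controls in 32 members, among them PSAP and IDUA, and to the left in 5, among them CTSB.

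The proteases rose in 6 of 10 cases, and the class held the single lower call. The largest rise was in CTSO, a cysteine cathepsin of low level (chr4:156842732-156875064 of GRCh37), with 130 and 157 scaled reads in shNT libraries and 336 and 391 in shYEATS2 libraries. Its log2 fold change was 1.34 ± 0.18 (SE, FDR 0.00210), a rise of 2.53-fold. CTSD, the main aspartic protease of the lysosome, had 3224 and 3223 scaled reads in the controls and 6551 and 8474 after knockdown, a log2 fold change of 1.22 ± 0.14 (FDR 0.00137). The control libraries of CTSD were almost equal, and the groups were well apart in both genes.

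CTSA, a serine carboxypeptidase that also protects the sialidase NEU1 and the galactosidase GLB1 from breakdown, went from 6377 and 6733 to 12638 and 17148 scaled reads (log2 fold change 1.18 ± 0.15, SE; FDR 0.00193). LGMN, the asparagine-specific endopeptidase that matures other cathepsins, rose from 3079 and 2927 to 5887 and 6894 (1.09 ± 0.11, FDR 0.00118). TPP1, an aminopeptidase that removes tripeptides, had 2550 and 2904 scaled reads in shNT and 4969 and 6582 in shYEATS2 libraries (1.08 ± 0.15, FDR 0.00249). In all of these genes the lower knockdown library exceeded the higher control by more than the controls differed from each other. CTSF rose less, by 0.61 ± 0.13 on the log2 scale (FDR 0.00908).

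CTSB, a cysteine protease with endopeptidase and carboxypeptidase activity, moved the other way. It had 6015 and 6385 scaled reads in the controls and 4436 and 4049 in the knockdown libraries, and its log2 fold change was -0.55 ± 0.10 (SE, FDR 0.00527). The groups did not overlap. With scaling by total counts the call was lost in the quasi-likelihood test (FDR 0.0114) and kept in exactTest (FDR 0.00297). It was also lost without shNT replicate 1, without shNT replicate 2 and without shYEATS2 replicate 2. The log2 values lay from -0.61 to -0.43 throughout. CTSC, a dipeptidyl peptidase, had the smallest change of the class, with 4683 and 4046 scaled reads in the controls and 4860 and 4425 after knockdown (0.09 ± 0.11). CTSZ (0.51, FDR 0.0132) and CTSH (0.26, FDR 0.371) did not pass the test either, and CTSH was counted at only 93.6 to 141 scaled reads.

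Among the glycosidases 8 of 15 were called higher and none lower, and the class held 5 of the 6 largest rises of all members. IDUA, the iduronidase of heparan and dermatan sulfate breakdown (chr4:980785-998352 of GRCh37), had 121 and 157 scaled reads in shNT libraries and 528 and 480 in shYEATS2 libraries. Its log2 fold change was 1.86 ± 0.18 (SE, FDR 0.00108). Here the higher knockdown library was replicate 1, whereas in most other members it was replicate 2. IDUA shares 13.2% of its exon bases with SLC26A1 on the opposite strand.

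NEU1, the lysosomal sialidase, rose from 1751 and 1914 to 4427 and 7328 scaled reads (log2 fold change 1.68 ± 0.23, SE; FDR 0.00220). GLB1, the acid galactosidase of GM1 ganglioside and keratan sulfate, rose from 1715 and 1823 to 3945 and 5578 (1.43 ± 0.17, FDR 0.00158). Together with CTSA, these are the enzymes of the lysosomal multienzyme complex, and all 3 were higher in YEATS2 KD cells. NEU1 had the widest spread of the called members between the knockdown libraries, with a ratio of 1.66 of replicate 2 to replicate 1, and its log2 fold change was 1.27 without replicate 2 and 2.00 without replicate 1.

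MAN2B1, the acid mannosidase, had 1319 and 1387 scaled reads in the controls and 3495 and 4641 after knockdown (log2 fold change 1.59 ± 0.15, SE; FDR 0.00105). HEXA, the alpha subunit of hexosaminidase A that is lost in Tay-Sachs disease, rose from 1420 and 1489 to 3580 and 5149 (1.59 ± 0.17, FDR 0.00136). MAN2B1 thus rose 3.01-fold, and HEXA by nearly as much. GAA, the glycogen-degrading glucosidase whose promoter is shown above, rose by 1.34 ± 0.12 on the log2 scale (FDR 0.00104), MANBA, the acid beta-mannosidase, by 1.27 ± 0.16 and GALC, which removes galactose from galactosylceramide, by 0.66 ± 0.09.

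The other 7 glycosidases were not called. NAGLU (0.76, FDR 0.0131), FUCA1 (0.75, FDR 0.0258), CTBS (0.63, FDR 0.0129) and FUCA2 (0.31, FDR 0.0336) lay above both controls in both knockdown libraries without passing the threshold. GLA, which removes alpha-linked galactose from globotriaosylceramide, had overlapping groups (0.28, FDR 0.147). AGA was grouped here with the glycosidases, although the link it cuts, between glycan and asparagine, is an amide bond. It had the smallest change of the group, with 287 and 306 scaled reads in the controls and 284 and 280 after knockdown (-0.07 ± 0.14). GUSB, the beta-glucuronidase, had a log2 fold change of -0.13 ± 0.10 (FDR 0.303), and reads of GUSB can be lost to or gained from its many pseudogenes.

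**Figure D2:**
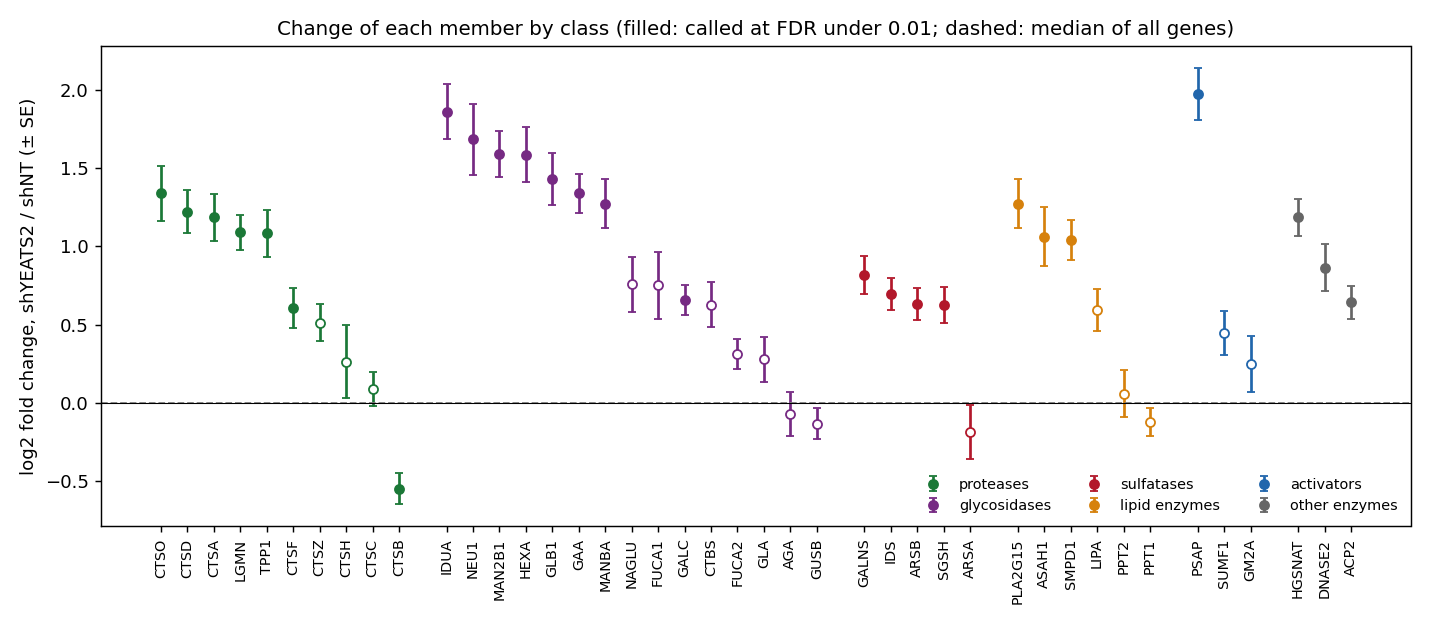
The log2 fold change of each member (shYEATS2 against shNT) with its standard error, ordered within class, filled where called and open where not, with a dashed line at the median of all genes. The values run from -0.55 for CTSB to 1.97 for PSAP.

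The sulfatases moved within a narrow range, and 4 of 5 were called higher. GALNS, which removes 6-sulfate from keratan and chondroitin sulfate (chr16:88880142-88923378 of GRCh37), had 1937 and 1910 scaled reads in the controls and 3051 and 3730 after knockdown (log2 fold change 0.82 ± 0.12, SE; FDR 0.00290). IDS, the iduronate sulfatase, rose from 1865 and 1934 to 2886 and 3260 (0.69 ± 0.10, FDR 0.00294), and ARSB, the 4-sulfatase of dermatan and chondroitin sulfate, rose from 1629 and 1559 to 2329 and 2607 (0.63 ± 0.10, FDR 0.00380). SGSH, the sulfamidase of heparan sulfate, rose from 1364 and 1174 to 2048 and 1868 (0.63 ± 0.11, FDR 0.00564). The groups of these 4 genes did not overlap. Of the exon bases of IDS, 75.9% are shared with other annotated genes, mainly a protein-coding gene model on the same strand, and IDS also has a pseudogene, IDSP1.

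ARSA, the sulfatase of the myelin lipid sulfatide, was the exception, with 186 and 209 scaled reads in shNT and 177 and 172 in shYEATS2 libraries (log2 fold change -0.18 ± 0.17, SE; FDR 0.402). All sulfatases need SUMF1, the endoplasmic reticulum enzyme that turns a cysteine of their active site into formylglycine. SUMF1 had 256 and 246 scaled reads in the controls and 339 and 346 after knockdown (0.45 ± 0.14, FDR 0.0354) and thus did not pass the test, although the groups did not overlap.

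Of the 6 lipid enzymes 3 were called higher. PLA2G15, a lysosomal phospholipase (chr16:68279207-68294961 of GRCh37), rose from 851 and 803 to 1693 and 2298 scaled reads (log2 fold change 1.27 ± 0.16, SE; FDR 0.00175). ASAH1, the acid ceramidase, rose from 1248 and 1408 to 2235 and 3307 (1.06 ± 0.19, FDR 0.00498), and SMPD1, the acid sphingomyelinase that makes ceramide, rose from 572 and 507 to 1032 and 1188 (1.04 ± 0.13, FDR 0.00175). The enzyme that forms ceramide and the one that cleaves it therefore both rose about 2-fold. LIPA, the acid lipase of cholesteryl esters and triglycerides, was just outside the threshold (0.59, FDR 0.0116).

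The thioesterases PPT1, which removes palmitate from proteins, and PPT2 were not called. PPT1, which is among the most abundant members, had 5949 and 5682 scaled reads in the controls and 5297 and 5407 after knockdown (-0.12 ± 0.09, SE; FDR 0.300). PPT2 had 459 and 463 in the controls and 425 and 535 after knockdown (0.06 ± 0.15, FDR 0.760). The shYEATS2 libraries of PPT2 lay on either side of the controls, and 56.0% of its exon bases are shared with other annotated genes.

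Among the activators, PSAP showed the largest rise of all members. PSAP (chr10:73576055-73611008 of GRCh37) encodes the precursor of the saposins, small proteins that present sphingolipids to their hydrolases. It had 14783 and 14794 scaled reads in the control libraries and 47990 and 67972 in the knockdown libraries, that is, means of 14788 ± 7.74 and 57981 ± 14129 (SD, n = 2). This gave a log2 fold change of 1.97 ± 0.17 (SE, FDR 0.000920), or a 3.92-fold rise, which stayed between 1.70 and 2.20 with each library left out. GM2A, the activator that lifts GM2 ganglioside out of the membrane for hexosaminidase A, had 1192 and 1261 scaled reads in shNT and 1178 and 1729 in shYEATS2 libraries (0.25 ± 0.18, FDR 0.286). Of the knockdown libraries only replicate 2 lay above the controls, and without replicate 1 GM2A would have been called (0.50, FDR 0.00959).

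All 3 of the other enzymes were called higher. HGSNAT, the membrane enzyme that acetylates the end of heparan sulfate chains, rose from 419 and 451 to 944 and 1034 scaled reads (log2 fold change 1.19 ± 0.12, SE; FDR 0.00116). DNASE2, the acid DNase, rose from 1163 and 1433 to 2108 and 2615 (0.86 ± 0.15, FDR 0.00467). ACP2, an acid phosphatase and the least changed of the 3, rose from 841 and 859 to 1277 and 1376 (0.64 ± 0.10, FDR 0.00384). In each of them both knockdown libraries were above both controls.

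Read along the substrates, the rises covered some chains of enzymes in full and others in part. For keratan sulfate all 3 of its enzymes among the members (GALNS, GLB1 and HEXA) were called higher. For heparan sulfate 4 of 6 were (IDUA, HGSNAT, IDS and SGSH), with NAGLU and GUSB not called, and for dermatan sulfate 4 of 5, with GUSB again not called. Of 10 genes for sphingolipid breakdown 7 were higher, while ARSA, GLA and GM2A were not called, and of 8 genes for N-glycan breakdown 5 were higher, with AGA, CTBS and FUCA1 not called. Across all genes tested, 12.9% were called higher and 12.5% lower. No gene of these chains was called lower. The chains share members, so that these counts are not independent of each other.

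Summed over the 42 members, CPM values (counts scaled to the TMM library size) were 2342 and 2392 in shNT and 4296 and 5481 in shYEATS2 cells, a ratio of the group sums of 2.07. PSAP made up a large share of this. Without it the sums were 1936 and 1986 in shNT and 2979 and 3615 in shYEATS2 libraries, a ratio of 1.68. By class, the ratio was 3.68 for activators, 1.93 for glycosidases, 1.81 for the other enzymes, 1.66 for proteases, 1.61 for sulfatases and 1.34 for lipid enzymes. In bulk RNA, a change in the makeup of the cells and a change of RNA per cell cannot be told apart.

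**Figure D3:**
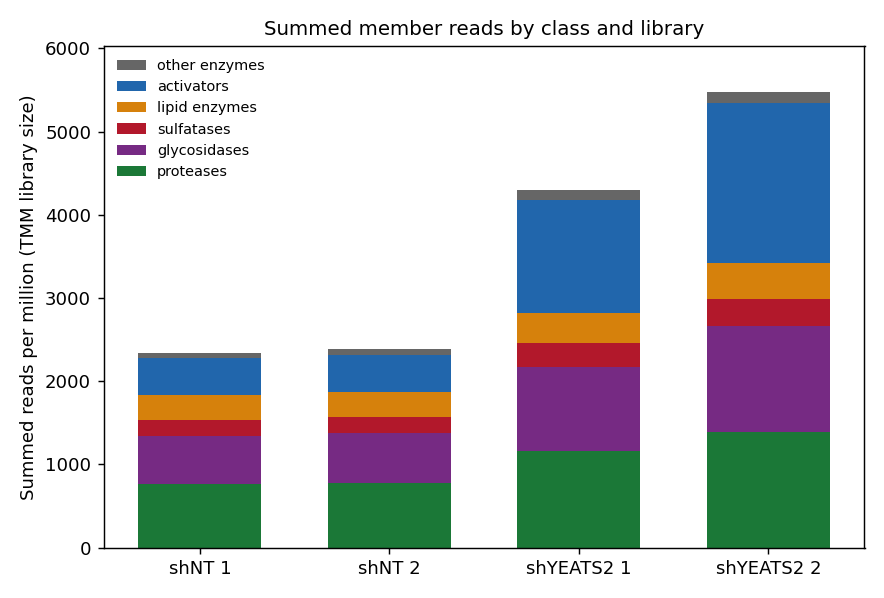
Summed CPM (scaled to the TMM library size) of the members in each library, stacked by class. The total is 2342 and 2392 in shNT and 4296 and 5481 in shYEATS2 libraries, and the activator segment, mostly PSAP, grows most.

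On a scale of reads per kilobase of the canonical transcript, PSAP was the most abundant member in both groups, with means of 5382 in shNT and 21099 in shYEATS2 libraries. CTSA came next in both, with 3528 and 8016. In the controls PPT1 (2546), FUCA2 (2380) and CTSC (2334) followed, and in the knockdown libraries CTSD (3656), LGMN (3228) and FUCA2 (2953). PPT1 thus moved from rank 3 to rank 7 and CTSB from rank 6 (1661) to rank 17 (1137), while NEU1 moved from rank 18 (546) to rank 9 (1753). The least abundant member was ARSA, with 46.1 and 40.6. Levels of IDS, PPT2, CTSD and other genes that share exons on the same strand may be too low. Reads that fall in 2 genes are not counted by HTSeq at its default setting. CTSZ shares exon bases only with NELFCD on the opposite strand, and how this affects its level was not tested. Leaving aside all members with shared exon bases or a pseudogene named after them, 12 remained. Of these, 8 were called higher and 0 lower, with a median log2 fold change of 0.84. Among all genes tested, 12.9% were called higher and 12.5% lower. None of the 12 was lower at an unadjusted p under 0.05 in edgeR's quasi-likelihood test.

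The knockdown libraries were unequal for these genes. The level was higher in shYEATS2 replicate 2 than in replicate 1 in 35 of 42 members (83.3%), against 49.4% of all genes, with a median ratio of 1.17 in the members and 0.997 in all genes. This was seen in 13 of 15 glycosidases, all 6 lipid enzymes and all 3 activators, but in 3 of 5 sulfatases. YEATS2 was at nearly the same level in both libraries, with a ratio of 1.01. KRT18, an epithelial keratin, also differed between them, with 13903 scaled reads in replicate 1 and 7983 in replicate 2 against 20088 and 18402 in the controls. Whether a property of that library plays a part in the larger rises was not tested.

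Hydrolases outside the member list behaved much alike. Of 30 listed, 24 had a row in the table, and 12 of these were called higher and 1 lower, with a median log2 fold change of 0.69. The shares over all genes tested were 12.9% higher and 12.5% lower. The largest rise was in PLD3, an endolysosomal exonuclease of single-stranded DNA and RNA, from 11694 and 12677 to 42255 and 44080 scaled reads (1.82 ± 0.10, SE; FDR 0.000793). SIAE, an esterase of acetylated sialic acid (1.47), NPC2, the cholesterol-binding protein lost in a form of Niemann-Pick disease type C (1.34), and PRCP, a carboxypeptidase (1.15), also rose. GGH, which trims folate polyglutamates, was the lower call, with 5962 and 6139 scaled reads in the controls and 4452 and 4429 after knockdown (-0.45 ± 0.09, FDR 0.00749). CTSL (-0.36, FDR 0.0427) and CTSV (-0.37, FDR 0.189), relatives of CTSB, did not pass the test and had values below 0. Other cysteine cathepsins went the other way. CTSO (1.34) and CTSF (0.61) were called higher, and CTSZ (0.51), CTSH (0.26) and CTSC (0.09) lay above 0 without a call.

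Genes that tag and sort the hydrolases were called higher in 5 of 9 cases and lower in none, with a median log2 fold change of 0.54. Over all genes tested, 12.9% were called higher and 12.5% lower, so that the absence of a lower call among 9 genes says little. IGF2R, the large mannose 6-phosphate receptor, had 6992 and 7396 scaled reads in the controls and 16043 and 23257 after knockdown (1.45 ± 0.17, SE; FDR 0.00167). The small receptor M6PR rose less, from 6645 and 6362 to 10036 and 11318 (0.72 ± 0.10, FDR 0.00258). Both genes of the phosphotransferase that begins the tag rose, GNPTG by 0.86 ± 0.14 and GNPTAB by 0.58 ± 0.11, as did the sorting receptor SORT1 by 0.54 ± 0.12 (FDR 0.00989, just inside the threshold). NAGPA, which uncovers the tag, and the adaptors GGA1, GGA2 and GGA3 were not called, with log2 fold changes from 0.10 to 0.38.

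Of 8 listed inhibitors of cathepsins, CST3 and CSTB had a row. CST3 (cystatin C), a secreted inhibitor of cysteine cathepsins, rose from 1510 and 1639 to 2169 and 2270 scaled reads (0.50 ± 0.10, SE; FDR 0.00716), and CSTB, the inhibitor of the cytosol, was not called (0.39, FDR 0.0235). Macrophages are rich in lysosomal enzymes, and 7 of 8 macrophage markers, PTPRC, CD14, CSF1R, AIF1, LYZ, CD163 and TYROBP, have no row in the table. The other, ITGAM, was counted at 231 and 136 scaled reads in shNT and 426 and 507 in shYEATS2 libraries (1.35 ± 0.25, FDR 0.00613), and its part in the result was not tested.

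**Figure D4:**
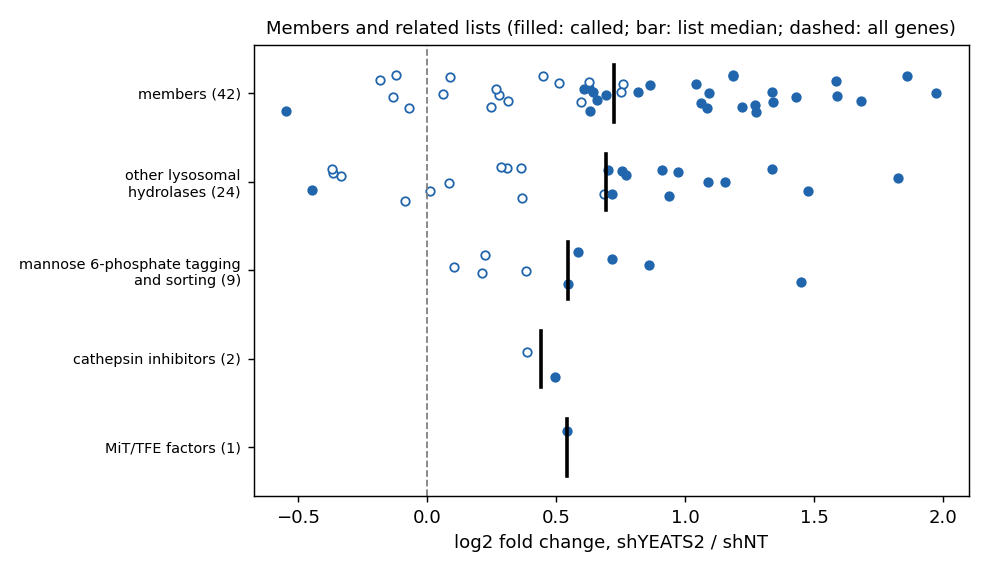
The log2 fold change of each gene of the member list and of 4 related lists, filled where called, with the list median as a bar and the median of all genes dashed. The medians are 0.72 for the members, 0.69 for other hydrolases with NPC2 and 0.54 for tagging and sorting genes. The last 2 lists hold 2 genes and 1 gene.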

How the data were processed

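RNA-seq libraries of H1299 cells (2 shNT, 2 shYEATS2) were analysed, and the ChIP-seq samples of the series were not used here. According to the methods, the authors used the RNA-Seq unified mapper against hg19 and counted reads with HTSeq at default parameters, whereas the submitters' processing notes also name TopHat2. The deposited values are raw counts per gene. The table lists genes with over 100 reads in some library, and its columns of the authors' own fold changes and p-values were not used. The annotation is not given in the sources used here, and the kit does not mark strand, so reads of antisense partners cannot be told apart.

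All 12676 genes passed a minimum of 10 reads in 2 libraries and were tested with the quasi-likelihood test of edgeR 4.0.16 (R 4.3.3), TMM scaling and no replicate block, after testing on simulated counts. DESeq2 1.42.0, limma 3.58.1 and exactTest were alternatives. The standard error is the absolute log2 fold change over the square root of F. Duplicates differed by more than sampling noise (chi-square per degree of freedom 17.9 in shNT, 38.0 in shYEATS2). Positions and transcript lengths come from the GRCh37 lift of GENCODE (12465 of 12676 identifiers matched) and promoters from RefSeq.

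Members and lists were chosen with earlier results of these data known. In each class, up to 5 called members with the largest changes and the member with the smallest change are given in every library, and the others by name and call. CTSB, GGH, CTSL and CTSV were added after their values were seen. Some results on single genes of the lists are not given here.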

Additional observations from a re-analysis of the deposited data

How the results depend on the processing

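The number of members called higher was between 24 and 32 in all alternatives with 4 libraries or without a shYEATS2 library, and 18 to 28 with each library left out. The 25 members kept their call in all 10 unblocked fits of 4 libraries at an FDR of 0.01, the reported one included. Among these, the fit with no filter repeats the reported one, since all genes passed the filter. DESeq2, exactTest and the fit with a replicate block each called 30, adding LIPA, NAGLU, CTSZ, CTBS and FUCA1. The number called lower was 0 with total counts in the quasi-likelihood test or with a change of at least 1.5-fold required. In exactTest with total counts it was 1. Over all genes, exactTest called 2510 higher and 2399 lower, an FDR of 0.05 gave 3093 and 3011, and each library left out gave 775 to 1971 and 850 to 2024. The replicate block gave 2742 and 2715. Libraries share only a number, and same-numbered libraries deviated together with a correlation of 0.402 over genes. Deviations were taken from the mean of the 2 libraries of a group, so both pairs give this same value by construction. Total counts moved the median of all genes to 0.12 and the share of higher calls from 50.8% to 67.0% (2363 higher, 1166 lower; exactTest with total counts called 3361 higher). On that scale the members' median was 0.84, AGA was at 0.047 and PPT1 at 7.42e-05 (0.0470 and 7.61e-05 in exactTest), above 0. With each library left out CTSC ranged from -0.011 to 0.194, GM2A from -0.057 to 0.497 and PPT2 from -0.116 to 0.214. The cause of these shifts was not tested. The errors rest on 2 libraries per group, and log2 standard errors of the members were 0.09 to 0.23.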
